A study of Mus musculus with 4 samples.

Results

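The genes Ccna1, Ccna2, Ccnb1, Ccnb2, Cdk1, Cdk2, Cdc25c, Cks2, Plk1 and Aurkc encode cyclins, cyclin-dependent kinases, a small subunit that binds these kinases, a phosphatase and mitotic kinases that drive meiotic and mitotic divisions. Their eCLIP-seq clusters were taken by position alone: a cluster was counted for a gene when its centre lay inside the span of that gene on its own strand (GENCODE M21, mm10). By this rule the 10 genes held 110 of 337234 clusters in replicate 1 and 108 of 216354 clusters in replicate 2. All 10 genes had a cluster in both replicates.

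The study mapped RNA bound by IGF2BP3, an RNA-binding protein, in testes of wild-type C57BL/6 mice at 8 weeks of age. Germ cells and somatic cells of the testis were analysed together. Each of the 2 replicates had 1 library of RNA recovered with an IGF2BP3 antibody (IP) and 1 size-matched input library (SMInput) made without an antibody, which gives 4 libraries. The usable reads, recovered from the deposited values, were 5133438 for the IP and 8706391 for the SMInput of replicate 1, and 4637612 and 16696122 for those of replicate 2.

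Cyclins bind and activate cyclin-dependent kinases, and the pair of cyclin B and CDK1 drives entry into M phase. CDC25 phosphatases remove inhibitory phosphates from the kinases, CKS proteins bind them as small accessory subunits, and Polo-like and Aurora kinases act at centrosomes and chromosomes. In the testis, spermatocytes use this machinery for the meiotic divisions, with some members that are largely restricted to germ cells, such as cyclin A1 and Aurora kinase C.

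A cluster was called a significant peak when its log2(fold change) of IP over SMInput was at least 2 and its −log10(P value) at least 2. The fold change divides the IP share of usable reads by the SMInput share, so that equal read numbers correspond to a log2(fold change) of 0.76 in replicate 1 and 1.85 in replicate 2. Over 1 SMInput read, a cluster passed both thresholds from 7 IP reads in replicate 1 and from 4 in replicate 2. Replicate 2, with the deeper SMInput, could therefore call clusters with fewer IP reads. No cluster was listed with fewer than 1 SMInput read, so a value of 1 may also stand for none. Intervals given below are exact 95% binomial intervals from the read numbers of 1 cluster. These intervals, and the exact tests on reads given below, cover counting error only. Clusters of a gene are not replicates of one another.

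The 10 genes held 8 significant peaks in replicate 1, which is 7.27% of their clusters, where 4.92% of all clusters were significant. In replicate 2 they held 22, or 20.4%, where 13.2% of all clusters were significant. Both shares lay above that of all clusters, and this difference was not tested. Introns held 30% and 17.6% of the clusters of the 10 genes, against 57.6% and 46.7% of all clusters. The significant shares were not adjusted for region. Ccnb1, Ccnb2, Cdk2 and Plk1 had a significant peak in both replicates, which makes 4 of the 10 genes, while 27.8% of the 18068 genes with a cluster did. Ccna1, Ccna2, Cdk1 and Cks2 had significant peaks in replicate 2 only, and Cdc25c and Aurkc had none in either replicate. Over all clusters of the 10 genes, the median log2(fold change) was 1.58 in replicate 1 and 1.56 in replicate 2, close to the 1.5 and 1.53 of all clusters.

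The peaks of these genes rested on few reads, as did those of other genes. The significant peaks had a median of 10.5 IP reads in replicate 1 and 8 in replicate 2, where all significant peaks had 13 and 8. In replicate 2, 13 of the 22 had fewer than 10 IP reads, or 59.1%, where 62.0% of all significant peaks did. Two-sided Fisher's exact tests on the recovered reads, adjusted by Benjamini-Hochberg over all clusters with recovered reads, kept 4 of the 8 peaks of replicate 1 at an adjusted p under 0.05. Of all significant peaks with recovered reads, 66.5% were kept in replicate 1. The 4 peaks kept were 1 in Ccnb2 and 3 in Cdk2. In replicate 2 all 22 were kept, as was every significant peak with recovered reads, so there the adjustment removed nothing. Over all clusters with reads, 3.68% in replicate 1 and 14.2% in replicate 2 had both this adjusted p and a log2(fold change) of at least 2. Clusters listed at a −log10(P value) of 0 were left out of this adjustment, which lowers the adjusted p. The same adjustment of the listed P values over all clusters kept 4 peaks in replicate 1 and 18 in replicate 2.

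**Figure D1:**
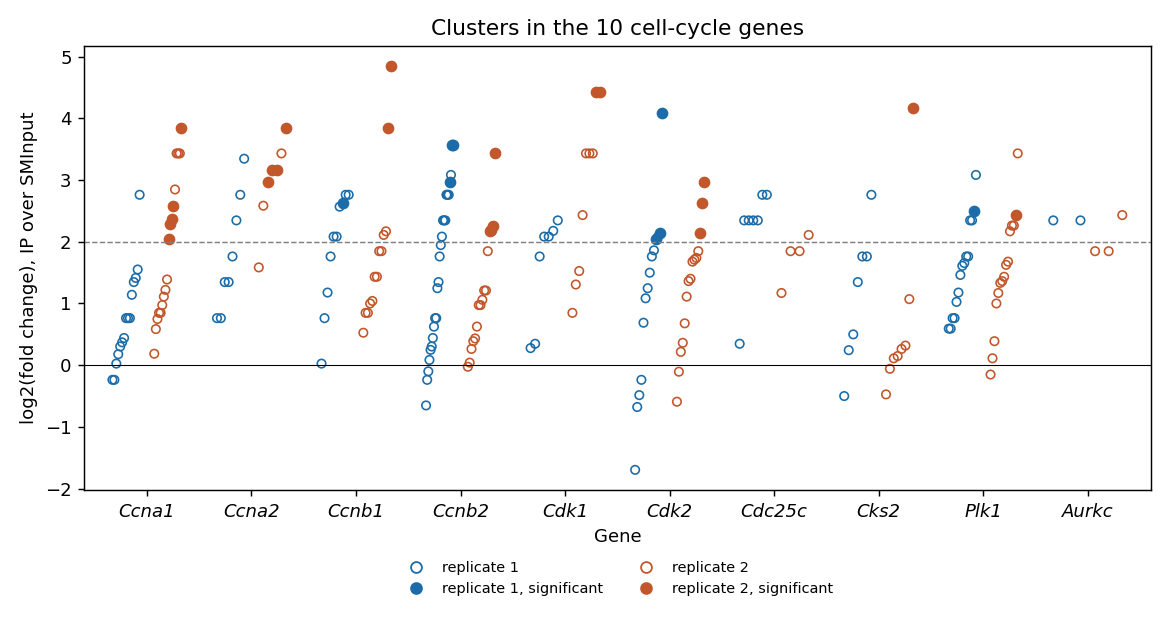
log2(fold change) of IP over SMInput for each cluster of the 10 genes, with replicate 1 in blue and replicate 2 in orange, 1 point per cluster, ordered by value within a gene and replicate. Filled points are significant peaks and the dashed line marks a log2(fold change) of 2; the 8 significant peaks of replicate 1 lie in 4 genes and the 22 of replicate 2 in 8 genes.

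By position, coding sequence held the largest share of the clusters of the 10 genes: 54 of 110 in replicate 1 and 66 of 108 in replicate 2, or 49.1% and 61.1%, where 26.5% and 33.8% of all clusters did. Introns held 33 and 19 of them, or 30% and 17.6%, where all clusters had 57.6% and 46.7%. The 3′UTRs held 17 clusters in each replicate. Of these 3′UTR clusters, 4 were significant in replicate 1 (23.5%) and 8 in replicate 2 (47.1%), where 19.4% and 34.5% of all 3′UTR clusters were significant. Of the coding clusters, 1 was significant in replicate 1 (1.85%) and 9 in replicate 2 (13.6%), where all coding clusters had 5.28% and 7.96%, so the genes lay below that share in one replicate and above it in the other. Of the intron clusters, 3 were significant in replicate 1 (9.09%) and 5 in replicate 2 (26.3%), where all intron clusters had 1.94% and 10.8%. None of these differences was tested. The intron counts take touching peaks with equal read numbers as separate, a pair in Ccnb2 in replicate 1 and a pair in Cdk1 in replicate 2. Most of these intron peaks had 1 SMInput read. Of all significant peaks of the 10 genes, 50% lay in a 3′UTR in replicate 1 (95% Wilson interval 21.5 to 78.5) and 36.4% in replicate 2 (19.7 to 57.0). These shares cannot be told apart from the 43.2% and 36.6% of all significant peaks at this number of peaks. The 5 clusters in 5′UTRs in each replicate held 0 significant peaks, a number too small to set beside the 5.09% and 8.63% of all 5′UTR clusters.

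Among the A-type cyclins, Ccna1, the germ-cell cyclin that male meiosis needs, had 15 clusters in replicate 1 with 0 significant, and 18 in replicate 2 with 5 significant. Its mRNA of 1719 bases is mostly coding, and 4 of the 5 peaks lay in coding exons. In exon 7, at chr3:55047279-55047324, replicate 2 had 15 IP and 11 SMInput reads, a log2(fold change) of 2.3 (interval 1.08 to 3.56). The replicate 1 cluster over it ran along the whole exon, at chr3:55047208-55047326, with 19 IP and 11 SMInput reads and a log2(fold change) of 1.55. In replicate 2 the rest of the exon was a separate cluster with 7 IP and 14 SMInput reads (0.85), so the clusters of the replicates do not cover like stretches. In exon 6, at chr3:55048406-55048453, replicate 2 had 10 IP and 7 SMInput reads (log2(fold change) 2.36), while replicate 1 had 16 and 21 (0.37). In exon 5, at chr3:55049678-55049729, replicate 2 had 10 and 6 reads (2.59) and replicate 1 had 11 and 7 (1.41). The other exon 5 peak had 8 IP and 7 SMInput reads in replicate 2, with 3 and 3 in the small cluster of replicate 1 that shared 5 of its bases. The highest log2(fold change) of Ccna1, 3.85, came from an intron peak at chr3:55053916-55053945 with 4 IP reads and 1 SMInput read, and replicate 1 had no cluster there. Near the end of the transcript, a 3′UTR cluster had 13 IP and 10 SMInput reads in replicate 1 and 16 and 22 in replicate 2, below the threshold in both.

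Ccna2, the A-type cyclin of S phase and mitosis in most dividing cells, had 8 clusters in replicate 1 with 0 significant and 7 in replicate 2 with 4 significant. All of its clusters lay in exons. Its 3′UTR of 1369 bases is the longest among the 4 cyclins, and 3 of its 4 peaks lay there. At chr3:36565425-36565500, 772 bases after the stop codon, replicate 2 had 13 IP and 6 SMInput reads, a log2(fold change) of 2.96 (1.47 to 4.65). Replicate 1 had a cluster of 6 IP and 4 SMInput reads inside the same stretch, with a log2(fold change) of 1.35. Further along, replicate 2 had 4 IP reads and 1 SMInput read at chr3:36565095-36565130 (log2(fold change) 3.85), and the overlapping cluster of replicate 1 had 6 and 1 (3.35). This replicate 1 cluster passed the fold change threshold and had a −log10(P value) of 1.91, just under 2. At 1 IP read more it would have reached the 7 reads that a call over 1 SMInput read took in replicate 1. Over the whole 3′UTR of Ccna2, the 5 clusters of replicate 1 ranged from 1.35 to 3.35 and the 4 of replicate 2 from 2.59 to 3.85.

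Ccnb1, the B-type cyclin that is essential for entry into M phase, had 10 clusters in replicate 1 and 13 in replicate 2, with 1 and 2 significant peaks. It held the one site of the 10 genes at which significant peaks of both replicates overlapped over most of their length. The site lies in the 3′UTR, in exon 9 of the minus-strand transcript. The replicate 1 peak at chr13:100779272-100779347, centred 369 bases after the stop codon, had 11 IP and 3 SMInput reads, a log2(fold change) of 2.64 (0.72 to 5.12). The replicate 2 peak at chr13:100779292-100779368 had 8 IP reads and 1 SMInput read, a log2(fold change) of 4.85 (1.95 to 10.32). They shared 56 bases, and their counting intervals overlapped. The adjusted p of the exact test was 0.0566 in replicate 1 and 0.000703 in replicate 2. The other peak of replicate 2, at chr13:100778861-100778917, had 4 IP reads and 1 SMInput read, and replicate 1 had no cluster there. The coding clusters of Ccnb1, 8 in replicate 1 and 11 in replicate 2, held 0 significant peaks, with medians of 1.92 and 1.43, and are too few to differ visibly from the shares of all coding clusters.

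The reads of Ccnb1 are uncertain in origin, because its mRNA has near-identical copies elsewhere in the genome. Stretches of at least 50 bases and 95% identity outside the gene covered 94.8% of its 2489 bases, the longest being 1858 bases on chromosome 14 with 97.6% identity, at the gene Gm8416. That copy differed from Ccnb1 at 1 position under each of the peaks of the shared site, and a copy on chromosome 5 differed at 2. The deposited tables had 0 clusters on any of the 6 copied stretches in either replicate. How reads with several places in the genome were handled is not given in the sources used here.

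Ccnb2, the B-type cyclin that mice can do without, had 25 clusters in replicate 1 and 16 in replicate 2, with 3 and 4 significant peaks. Among clusters with recovered reads, its last exon had the deepest of the 4 cyclins. In replicate 2, the peak at chr9:70407796-70407966, centred 38 bases after the stop codon, had 43 IP and 34 SMInput reads, a log2(fold change) of 2.19 (1.5 to 2.88). In replicate 1, the peak at chr9:70407962-70408030, centred 77 bases before the stop codon in coding sequence, had 23 IP and 5 SMInput reads, a log2(fold change) of 2.96 (1.54 to 4.72). The adjusted p of the exact test was 4.8e-09 for the former and 8.44e-05 for the latter. These peaks counted as a shared site because they had 5 bases in common. Most of the replicate 2 peak was covered in replicate 1 by another cluster, at chr9:70407827-70407961, with 36 IP and 18 SMInput reads and a log2(fold change) of 1.76, under the threshold. Inside the replicate 1 peak, replicate 2 had a cluster at chr9:70407996-70408018 with a log2(fold change) of 0.04. The border between these replicate 1 clusters lies in coding sequence, not at the stop codon, and the replicate 2 peak reaches past it. The replicates thus differed in which side of this border passed the thresholds.

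Upstream in the coding sequence of Ccnb2, replicate 2 had peaks in exon 7 at chr9:70410121-70410165 (8 IP and 6 SMInput reads, log2(fold change) 2.26) and in exon 6 at chr9:70410659-70410722 (10 and 8, 2.17). The replicate 1 clusters over them had 8 IP and 11 SMInput reads (0.30) and 14 and 10 (1.25). Introns of Ccnb2 held 10 clusters in replicate 1 and 2 in replicate 2. A pair of touching peaks of replicate 1, at chr9:70412689-70412701 and chr9:70412702-70412742, had 7 IP reads and 1 SMInput read each. Whether the equal numbers on either side of the border come from the same reads was not tested. Replicate 2 had its intron peak elsewhere, at chr9:70413983-70414095, with 6 IP and 2 SMInput reads.

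The 30 bases of mm10 at the centre of the replicate 1 peak of each shared site, and those around the bases in common at Ccnb2, show what the shared calls cover. They are given 5′ to 3′ on the minus strand, with bases under the peaks of both replicates in capitals.
Ccnb1, 3′UTR, chr13:100779295-100779324: GCCACCTTTAACCACTGTCTCTTGGTTTGT
Ccnb2, coding, chr9:70407982-70408011: gccagcagcagactcctgaagatcagcacg
Ccnb2, coding, chr9:70407950-70407979: ccctcagctgaacTCCAAaatcatcaaaga
The Ccnb1 window lies wholly under both peaks, and the Ccnb2 windows hold 0 and 5 such bases.

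Cdk1, the kinase that cyclin B activates for M phase, had 7 clusters in replicate 1 with 0 significant and 9 in replicate 2 with 2 significant. Most of them lay in introns, 5 in replicate 1 and 6 in replicate 2. The peaks of replicate 2 touched each other in an intron, at chr10:69339644-69339657 and chr10:69339658-69339706, each with 6 IP reads and 1 SMInput read and a log2(fold change) of 4.43 (1.39 to 9.96). Replicate 1 had no cluster over them. The mature transcript of Cdk1 is the longest of the 10, with a 3′UTR of 3352 bases, and held 0.457 exon clusters per kb in replicate 1 and 0.686 in replicate 2. Its 3′UTR cluster had 5 IP and 7 SMInput reads in replicate 1 (log2(fold change) 0.28) and 11 and 16 in replicate 2 (1.31).

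Cdk2, the S-phase kinase that is required for meiotic prophase, had 14 clusters in replicate 1 and 15 in replicate 2, with 3 significant peaks in each. Along its mRNA, the 3′UTR clusters had a median log2(fold change) of 1.96 in replicate 1 (6 clusters) and 1.74 in replicate 2 (7 clusters), and the coding clusters had medians of −0.58 (4 clusters) and 0.68 (7 clusters). The 3′UTR medians were near the 1.76 and 1.85 of all 3′UTR clusters, and all coding clusters had 0.76 and 0.93. Pairs of overlapping clusters were below 0 in both replicates in exon 4, at −1.7 and −0.59, and in exon 3, at −0.68 and −0.11. The 3′UTR peaks of replicate 1 touched each other, at chr10:128698518-128698574 with 26 IP and 10 SMInput reads (log2(fold change) 2.14, 1.04 to 3.36) and at chr10:128698575-128698614 with 22 and 9 (2.05, 0.88 to 3.35). The adjusted p of the exact test was 0.00141 and 0.00734. Over the former, replicate 2 had a cluster with 11 IP and 15 SMInput reads and a log2(fold change) of 1.40.

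The replicate 2 peak nearest to these ended at the base before the replicate 1 peak began, at chr10:128698487-128698517, with 12 IP and 7 SMInput reads (log2(fold change) 2.63, 1.16 to 4.21). With no base in common, it did not count as shared. Another replicate 2 peak of the 3′UTR, at chr10:128698728-128698783, had 13 and 6 reads (2.96), and replicate 1 had no cluster there. Near the end of the 3′UTR, at chr10:128698048-128698152, replicate 2 had its deepest Cdk2 cluster among those with recovered reads. It had 38 IP and 41 SMInput reads, a −log10(P value) of 7.53 and a log2(fold change) of 1.74. It fell short on the fold change alone, and the replicate 1 cluster inside it had 19 and 20 reads (0.69). The highest fold change of Cdk2 was in an intron in replicate 1, at chr10:128700117-128700168, with 10 IP reads and 1 SMInput read (log2(fold change) 4.08, 1.27 to 9.52; adjusted p of the exact test 0.0103). Replicate 2 had no cluster at that place, and had a coding peak in exon 5 with 11 IP and 9 SMInput reads (2.14).

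The border between the touching 3′UTR peaks of Cdk2 is shown in the 30 bases around it, with the bases of the replicate 1 peak in capitals and those of the replicate 2 peak in lower case, 5′ to 3′ on the minus strand.
Cdk2, 3′UTR, chr10:128698503-128698532: CAGGAGGGCACAGGGcttgcacgtcactct

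**Figure D2:**
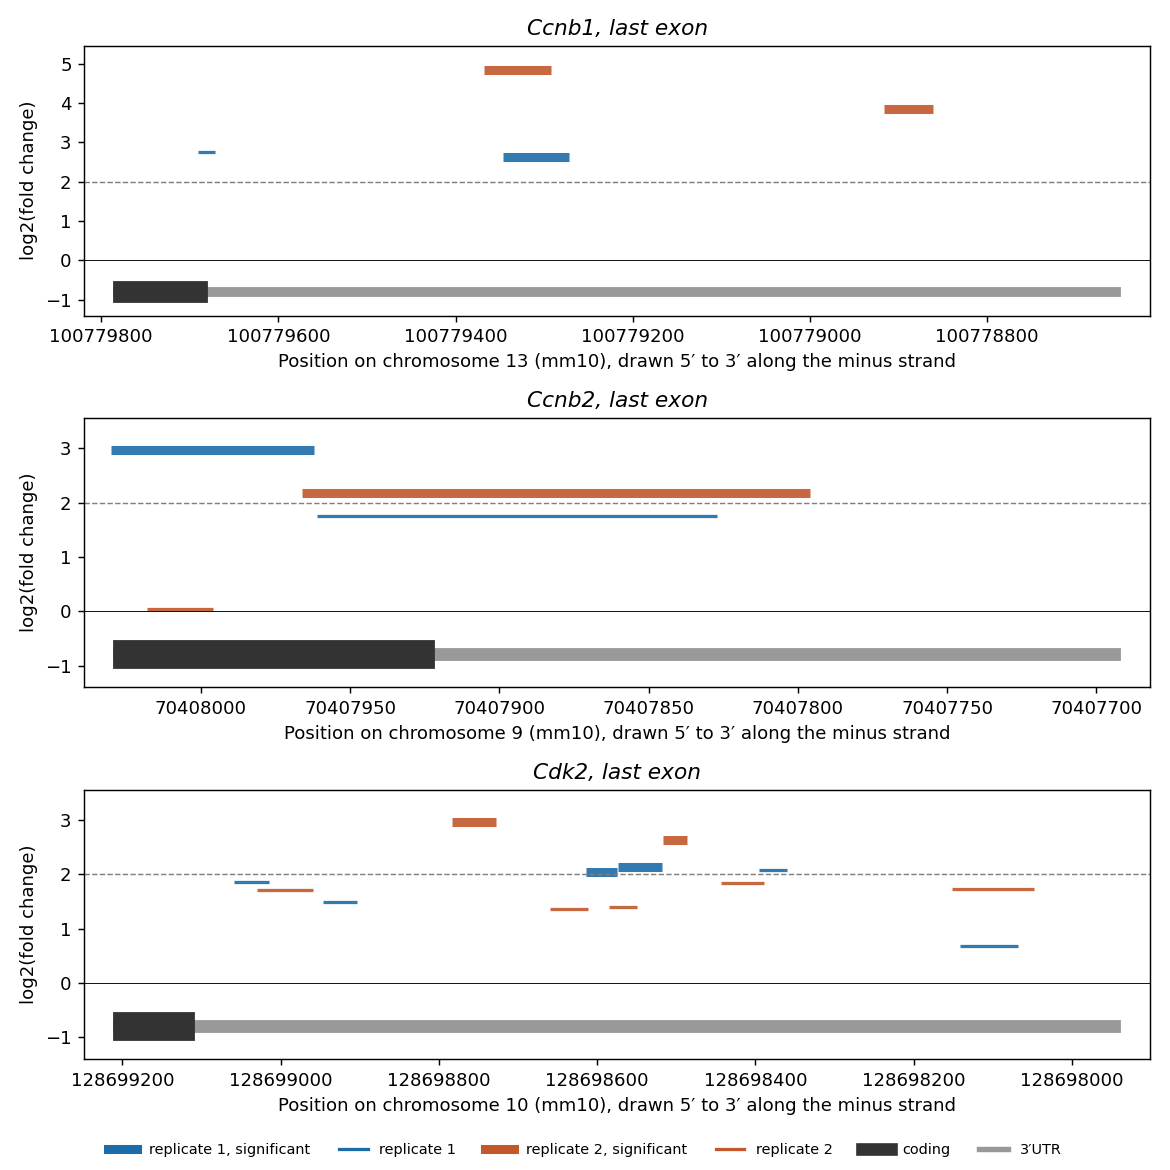
Clusters in the last exon of Ccnb1, Ccnb2 and Cdk2, drawn as bars from start to end at the height of their log2(fold change) of IP over SMInput, with replicate 1 in blue and replicate 2 in orange. Thick bars are significant peaks, the dark box is coding sequence and the grey bar 3′UTR (mm10); significant peaks of the replicates share 56 bases in Ccnb1, 5 in Ccnb2 and 0 in Cdk2.

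Cks2, the small CDK-binding subunit that both sexes need to leave metaphase of the meiotic division that separates homologues, had 7 clusters in replicate 1 with 0 significant and 8 in replicate 2 with 1 significant. Its deepest cluster among those with recovered reads, in exon 1, was not enriched in either replicate. It had 30 IP and 43 SMInput reads in replicate 1 (log2(fold change) 0.24, −0.48 to 0.95) and 27 and 78 in replicate 2 (0.32, −0.37 to 0.97). Both intervals lie below the threshold of 2. The peak of replicate 2 lay in an intron, at chr13:51647938-51647995, with 5 IP reads and 1 SMInput read (4.17, 1.01 to 9.73). In the same intron lies the small nucleolar RNA gene Gm22806 on the same strand, and 1 cluster of each replicate had its centre in it, with 5 IP and 6 SMInput reads in replicate 1 and 5 and 15 in replicate 2. Copies with at least 95% identity elsewhere in the genome covered 86.6% of the Cks2 mRNA, which leaves the origin of its exon reads uncertain.

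Cdc25c, a phosphatase that activates CDK1, had 7 clusters in replicate 1 and 4 in replicate 2, and 0 were significant. Its clusters had at most 4 IP reads in replicate 1 and 6 in replicate 2. In replicate 1, where a call took at least 7 IP reads, enrichment of these clusters was not detectable at this depth. The cluster with the highest −log10(P value), 1.75, lay in exon 4 in replicate 2, at chr18:34749517-34749544. It had 6 IP and 5 SMInput reads and a log2(fold change) of 2.11 (0.14 to 4.16), which passed the fold change threshold only. In replicate 1 the nearest cluster, in the same exon, had 3 and 4 reads and a log2(fold change) of 0.35.

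Plk1, the Polo-like kinase of centrosomes and chromosomes in M phase, had 15 clusters and 1 significant peak in each replicate. On its mRNA of 2199 bases, the peaks were centred at base 2096 in replicate 1 and base 496 in replicate 2. In replicate 1 the peak was in the 3′UTR at chr7:122169749-122169792, 180 bases after the stop codon, with 10 IP and 3 SMInput reads (log2(fold change) 2.50, 0.54 to 5.0). In replicate 2 it was in exon 1, in coding sequence at chr7:122159917-122159951, with 6 IP and 4 SMInput reads (2.43, 0.36 to 4.70). Plk1 thus counted among the genes called in both replicates with no site in common. The replicate 1 cluster over the exon 1 peak had 7 IP and 7 SMInput reads and a log2(fold change) of 0.76. No cluster of replicate 2 lay over the 3′UTR peak, and its 1 cluster in the 3′UTR, further downstream, had 4 and 3 reads (2.26). The adjusted p of the exact test was 0.0868 for the replicate 1 peak and 0.0482 for the replicate 2 peak.

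Aurkc, the Aurora kinase of germ cells, had the fewest clusters of the 10 genes, 2 in introns in replicate 1 and 3 in coding exons in replicate 2. None was significant, and each had 3 IP reads. The highest −log10(P value) was 1.14, in exon 6 in replicate 2 at chr7:7002357-7002360, with 3 IP and 2 SMInput reads (log2(fold change) 2.43, −0.69 to 6.01). At 3 IP reads no cluster could pass in either replicate, so binding was not detectable at this depth. Copies elsewhere in the genome covered 85.7% of the Aurkc mRNA, the longest over 990 bases with 98.9% identity at Gm12463 on chromosome 4, and 0 clusters were listed on them.

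**Figure D3:**
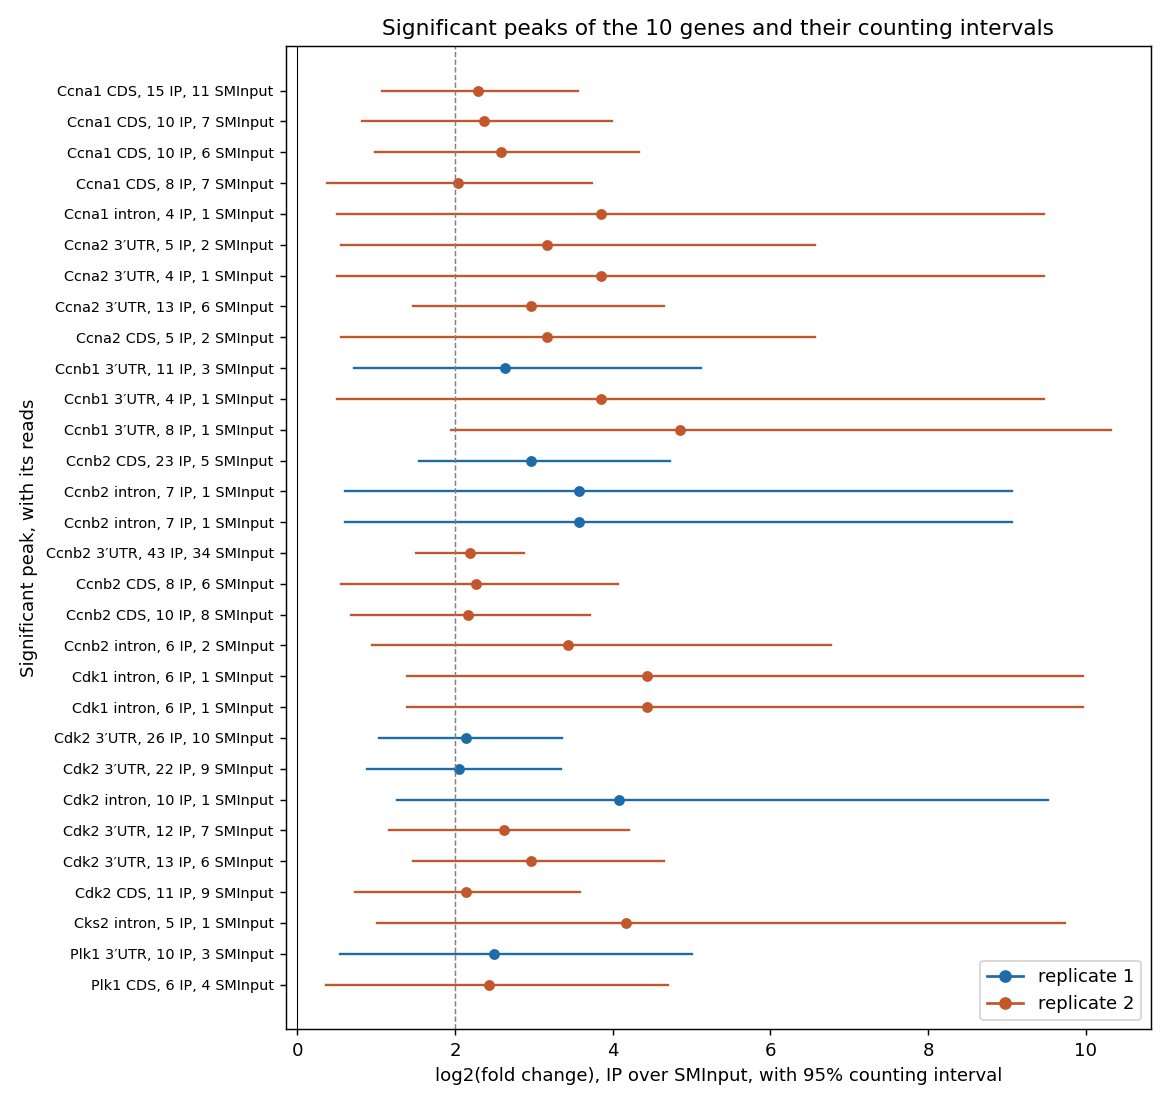
log2(fold change) of IP over SMInput of the 30 significant peaks of the 10 genes, with exact 95% intervals from the read numbers of each peak as horizontal lines, replicate 1 in blue and replicate 2 in orange, and the IP and SMInput reads at the left. Peaks over 1 SMInput read have intervals that reach above 9, and the narrowest interval is that of the Ccnb2 3′UTR peak of replicate 2, from 1.5 to 2.88.

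Across the 10 genes, 53 of the 110 clusters of replicate 1 overlapped a cluster of replicate 2 on the same strand by at least 1 base, or 48.2%, where 24.9% of all clusters of replicate 1 did. Clusters of the 10 genes lay less often in introns and had a median of 6 IP reads in replicate 1, where all clusters had 4. The overlap shares were not adjusted for region or reads. In 43 of these 53 pairs the log2(fold change) was above 0 in both replicates, in 20 it was at least 1 in both, and in 3 at least 2 in both. These are 81.1%, 37.7% and 5.66% of the pairs, where the pairs of all clusters had 76.8%, 35.4% and 9.82%. Each cluster was paired with the one sharing the most bases. Of the significant peaks, 4 of 8 in replicate 1 and 11 of 22 in replicate 2 lay over a cluster of the other replicate, or 50% each, where 53.4% and 41.7% of all significant peaks did. The remaining peaks of each list had no cluster there to compare. Under the 11 peaks of replicate 2, the replicate 1 clusters ranged from 0.30 to 3.35 with a median of 1.35.

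Sequence windows of 100 bases around the cluster centres, read on the strand of the gene only, were searched for 4 short motifs. The motif GGACT was in 0 of the 8 peaks called in replicate 1 and in 5 of the 22 called in replicate 2, where it was in 9.92% and 9.09% of the windows of all significant peaks. The motif GAACA was in 1 of 8 and 1 of 22 (8.87% and 8.38% of all), and the motif AAACC in 1 of 8 and 2 of 22 (8.65% and 8.14%). The shorter CACA was in 3 of 8 and 8 of 22, and in 36.9% and 34.5% of all. Touching peaks share most of their windows, and these counts are too small to set the genes apart. The matches other than CACA near peaks with at least 10 IP reads in the last exons of Ccnb1, Ccnb2 and Cdk2 are printed with the motif in capitals, 5′ to 3′ on the minus strand, to show where the motif letters fall.
Ccnb1, 3′UTR, chr13:100779263-100779292: actttcagatctgAAACCaagtatcttttt
Ccnb2, exon 9 and intron, chr9:70408005-70408034: tgcaggctgtcaaGAACAagtatgccagca
Ccnb2, coding and 3′UTR, chr9:70407897-70407926: gcccctagacactGGACTgccatcctgcgc
Ccnb2, 3′UTR, chr9:70407840-70407869: tagtttacatcacAAACCtcttctcaaact
Cdk2, 3′UTR, chr10:128698717-128698746: tttgtgaactaatGAACAtgagcagaagcc
The Ccnb1 match lies in the replicate 1 peak and outside the replicate 2 peak, so it is not among the bases they share. A match describes the letters in the window and is not evidence of binding at that base.

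Of 48 other cell-cycle genes, 45 had a cluster in either replicate and 13 had a significant peak in both, or 28.9% of the 45, near the 27.8% of all genes. Together they had 728 clusters in replicate 1 with 5.63% significant and 520 in replicate 2 with 14.0%, near the 4.92% and 13.2% of all clusters. By group, the 8 other cyclins had 14.3% and 39.0% significant, and the mitotic kinases and their partners 3.52% and 8.29%. Of the cyclin peaks, Ccnd3 and Ccne2 held 14 of 15 in replicate 1 and 19 of 30 in replicate 2. The kinases, partners, phosphatases and inhibitors around the CDKs had 3.7% and 12.0%, and the regulators of the anaphase-promoting complex and of exit 6.0% and 9.0%. Differences between the groups were not tested. Among these genes 9 had a site with overlapping significant peaks, or 20% of the 45, where 11.9% of all genes with a cluster and 2 of the 10 genes did. The 8 with the highest smaller fold change of both replicates were Ccnd3, Spdya, Aurkb, Arpp19, Ccne2, Bub1b, Cdkn2c and Aurka. The D-type cyclin Ccnd3 led them, with 4 shared sites. In its 3′UTR near chr17:47599066-47599223 the strongest peaks had 87 IP and 5 SMInput reads in replicate 1 and 66 and 11 in replicate 2, log2(fold change) values of 4.88 and 4.43. Spdya, an activator of CDK2 in germ cells, had a 3′UTR site with 18 and 3 reads in replicate 1 (3.35) and 19 and 4 in replicate 2 (4.10). The Aurora kinase Aurkb had 12 and 1 reads (4.35) and 10 and 4 (3.17) in its 3′UTR, and Aurka 24 and 7 (2.54) and 15 and 11 (2.3). The CDK inhibitor Cdkn2c had 54 and 18 reads (2.35) and 82 and 23 (3.68). The smaller values of Arpp19, Ccne2 and Bub1b were 3.11, 2.85 and 2.36. At the shared sites of Ccnb1 and Ccnb2 the smaller values were 2.64 and 2.19, and over all 14 shared sites of these other genes they ran from 2.04 to 4.43.

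The labelled tissue was checked by marker genes. All 8 male germ cell markers had clusters in both replicates, 172 and 157 in all, with up to 445 IP reads at Prm1 in replicate 1 and 721 at Hspa2 in replicate 2. The germ cell gene Dazl had 14 significant of 24 clusters in replicate 1 and 10 of 20 in replicate 2. Ddx4 had 11 of 75 and 7 of 76, and Acrv1 had 5 of 15 and 3 of 8. Of all clusters, 4.92% and 13.2% were significant. Sycp3, Hspa2, Tnp1, Prm1 and Prm2 had 0 in either replicate, so the marker clusters with the most recovered IP reads were not significant. Somatic markers were present as well, with 95 and 76 clusters over the 4 Sertoli cell genes (3 of them in replicate 2). Wt1 alone held 82 and 65 of these. The 4 Leydig cell genes had 35 and 29 clusters, where every cluster of Insl3 lay in Jak3 too. Macrophage genes had 13 and 3 clusters, and peritubular and endothelial genes 54 and 26. Among the somatic markers in replicate 1, 1 cluster was significant of 5 in Rhox5, 2 in Star, 10 in Hsd3b1 and 34 in Myh11. In replicate 2, Wt1 had 6 significant of 65 clusters, Insl3 3 of 14 and Myh11 2 of 13. Cd68 had 1 of 1 there and Acta2 1 of 13. How the germ cell and somatic markers differ from each other or from all clusters was not tested. The markers of other tissues, Alb, Ins2 and Myh6, had 0 clusters. Since cell types were not separated, more cells of a type and more RNA per cell cannot be told apart in the read numbers of any gene described here.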

How the data were processed

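Testes of 2 replicates were profiled by eCLIP-seq, each with an IP and an SMInput library. The authors trimmed reads with cutadapt, removed ribosomal RNA reads with Bowtie2, aligned to mm10 with STAR, collapsed PCR duplicates with molecular barcodes and ran Clipper on each replicate to find clusters. The deposited −log10 P values compare IP with SMInput reads in each cluster and run from 0 to 400. The log2 values deposited by the authors are the scaled ratio of IP to SMInput reads. Library totals and read numbers were recovered as the whole numbers that return both listed values. A single solution was found for 98.9% and 99.2% of the clusters listed between 0 and 400, and the others, including those listed at 0, carry no read numbers. The recovery was checked on simulated data. Fisher's exact tests used SciPy 1.17.1. They cover clusters with recovered reads only. Copies were searched with BLAST+ 2.17.0, and sequences are from GRCm38, in which 0 clusters ran past a chromosome end. Where annotations overlapped, the order of preference was 3′UTR, coding sequence, 5′UTR, non-coding exon, intron. Exon numbers and distances refer to 1 principal basic transcript per gene.

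The members and lists were chosen with earlier results of these data known. Named were every shared site, otherwise the cluster with the highest fold change among the significant, otherwise that with the highest −log10 P, and up to 8 other genes. The remaining peaks and the sequences beside the centres of shared sites were chosen after their values were seen. The authors call the replicates biological, and the labels do not say whether they come from separate animals.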

Additional observations from a re-analysis of the deposited data

How the results depend on the processing

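Of 75 alternative values, 44 stayed within a set tolerance: 1.5 times for counts, the Wilson interval for 3′UTR shares, and for medians 1 SD between the replicates, which is small. None changed sign. Raising both thresholds to 3 left 1 significant peak in replicate 1 and 3 in replicate 2, 0 genes and 0 sites called in both, 0% in 3′UTRs in replicate 1 and 5 other cell-cycle genes. Lowering both to 1 gave 42 and 62 peaks, 9 genes, 16 sites and 40 other genes. At least 10 IP reads left 9 peaks in replicate 2, 2 genes (Ccnb2 and Cdk2) and 1 site, that of Ccnb2. Benjamini-Hochberg adjustment of the listed P values left 4 peaks in replicate 1 and 18 in replicate 2, the same 2 genes and again the Ccnb2 site (1 site). With centres in exons only, replicate 1 had 5 peaks, 80.0% of them in 3′UTRs, and the medians were 1.16 and 1.39. Leaving out centres in another gene on the strand gave medians of 1.61 and 1.59. By the nearest start site on either strand, 1 of the 8 peaks of replicate 1 remained, and 1 gene, Plk1. An overlap of at least 0.5 of the shorter peak left 1 site, that of Ccnb1. Each replicate alone gave 4 to 8 genes, 6 to 21 sites and 17 to 25 other genes. Alternatives chosen after seeing the data were leaving out Ccnb1, Cks2 and Aurkc, which left 1 site, joining touching peaks (6 and 21 peaks) and counting touching peaks as shared (3 sites). No paired analysis was possible because the tables give reads only in clusters called in the same replicate, 0 of the 53 overlapping pairs of the 10 genes had the same borders, and no result comes from a test across samples. Peaks with few reads limit all counts.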
